A study of Rattus norvegicus with 8 samples.

Results

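The genes described here encode the contractile and actin cytoskeleton apparatus of smooth muscle. The 35 genes were listed by symbol, and every array feature (probe set) annotated to exactly 1 of these symbols was taken. Of the 35, 34 were on the array, with 64 of its 31042 non-control probe sets. Pgm5 was not matched to a probe set, and 5 probe sets listed under both Acta2 and another actin were left out. Of the 64 probe sets, 56 passed the filter on dim signals, and these covered all 34 genes. The 8 that did not pass belonged to Synm (2 probe sets), Tpm1, Cald1, Synpo2, Pln, Itga8 and Kcnma1, each of which had at least 1 other probe set that passed.

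RNA came from the ventral prostate of male Sprague-Dawley rats of generation 3, bred from pregnant founders given intraperitoneal injections on gestation days 8 to 14. The 4 groups of 2 arrays each were whole ventral prostate at 180 days of age from control and from vinclozolin lineage rats, and ventral prostate epithelium at 45 days from control and from vinclozolin lineage rats. Vinclozolin, a crop fungicide, blocks the androgen receptor. Groups were taken from the sample titles, because the treatment text names only the vehicle, DMSO, for all 8 samples. Each whole prostate sample pooled several animals and each epithelium sample pooled 11, and p-values measure only the spread between such pools, which may be technical. The question was whether descendants of exposed founders differ from control descendants in prostate gene expression.

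In the prostate, glandular ducts are wrapped in smooth muscle, which contracts to expel secretion and exchanges androgen-dependent signals with the epithelium. Contraction starts when calcium activates myosin light chain kinase, and the phosphorylated smooth muscle myosin then pulls on thin filaments of actin and tropomyosin that are anchored at dense bodies and membrane plaques. The genes for this apparatus are switched on largely by serum response factor and its muscle cofactor myocardin, which act through the CArG box, a run of A and T between CC and GG.

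To show that element in genes whose values are given below, the 150 bases before the RefSeq gene start are printed for 4 of them, 5′ to 3′ on the gene's strand in build GRCr8. Srf and Cnn2 hold a CArG box, and Acta2 showed the largest rise between the preparations. Tpm1 was the only member gene that passed the test between the lineages in whole prostate. Capitals mark CArG boxes, CArG boxes with 1 G or C in the A/T core, and the muscle MCAT box (CATTCC on either strand).
Srf, chr9:21923926-21924075, plus strand: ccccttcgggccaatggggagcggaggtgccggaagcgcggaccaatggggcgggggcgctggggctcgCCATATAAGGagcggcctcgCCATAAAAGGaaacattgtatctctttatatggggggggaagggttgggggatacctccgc
Cnn2, chr7:10370313-10370462, minus strand: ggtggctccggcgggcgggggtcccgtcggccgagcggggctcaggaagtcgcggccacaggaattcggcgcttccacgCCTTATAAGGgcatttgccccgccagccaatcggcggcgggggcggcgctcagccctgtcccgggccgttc
Acta2, chr1:241172504-241172653, minus strand: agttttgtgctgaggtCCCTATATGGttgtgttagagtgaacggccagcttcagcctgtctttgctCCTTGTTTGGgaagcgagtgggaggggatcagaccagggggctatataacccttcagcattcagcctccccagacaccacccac
Tpm1, chr8:76543416-76543565, minus strand: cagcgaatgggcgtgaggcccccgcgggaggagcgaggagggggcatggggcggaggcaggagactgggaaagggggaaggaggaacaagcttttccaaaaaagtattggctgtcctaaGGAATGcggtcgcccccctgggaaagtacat

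A RefSeq promoter entry was found for 28 of the 34 genes. Lmod1, Myh11, Myl9, Myocd, Pdlim3 and Tagln had no entry and were not searched. Within 250 bases before the start, a CArG box was found for Srf, with 2 of them, and for Cnn2, or 2 of 29 member promoters (6.9%) against 1.5% of all 33469 promoters. With 1 G or C allowed in the core, Acta2 was added, which made 3 of 29 (10.3%) against 8.08% of all. The MCAT box was present in 9 of 29 (31%), Tpm1 and Acta2 among them, against 12.1% of all promoters. In the printed Tpm1 stretch no CArG box was found, and its MCAT box lies 31 to 26 bases before the start. Such matches describe letters and do not show binding, and several of these genes, Tpm1 and Cald1 included, have further starts outside the windows.

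All levels below are log2(intensity + 16) after quantile normalisation, and all changes are differences on that scale each with its standard error (SE) from the limma model, with 2 arrays in a group. Calls were made at a limma adjusted p under 0.05, adjusted over 21729 probe sets. The median standard deviation of the member probe sets between the arrays of a group lay between 0.09 and 0.11. The arrays had been put on 1 common trimmed mean, their median intensities ran from 28.7 to 38.7, and 28.3% to 36.7% of intensities were under 16. As a sign of RNA quality, beta-actin signal at the 3' end over that at the 5' end was 3.74 and 3.98 in whole prostate control, 3.37 and 3.14 in whole prostate vinclozolin and 2.26 to 2.57 in epithelium.

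Of the 34 genes, Tpm1 alone was called between the lineages in whole prostate, and it fell. Tpm1 encodes alpha-tropomyosin, the coiled coil that lies along the actin filament and gates its contact with myosin, in smooth, skeletal and cardiac muscle and, through many splice forms, in other cells. Its probe set 1371241_x_at fell by 2.12 ± 0.16 on the log2 scale, or 4.34-fold, in whole prostate of the vinclozolin lineage (limma adjusted p = 0.0030). The probe sets 1395794_at (-1.13 ± 0.11), 1368724_a_at (-1.05 ± 0.12), 1370513_at (-0.94 ± 0.11) and 1370288_a_at (-0.94 ± 0.13) also fell, with adjusted p from 0.010 to 0.024. These 5 calls, all lower, stood among 56 member probe sets, where 0.925% of all probe sets tested were called lower and 0.819% higher, or 1.74% in all. No member was called higher.

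By array, probe set 1371241_x_at read 8.07 and 8.19 in whole prostate control and 6.10 and 5.93 in whole prostate vinclozolin. In epithelium it read 7.68 and 7.84 in control and 7.91 and 7.57 in vinclozolin. Both vinclozolin arrays of whole prostate thus lay below the other 6 arrays, while the epithelium groups overlapped.

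Probe set 1395794_at read 9.15 and 9.14 in whole prostate control, 7.96 and 8.07 in whole prostate vinclozolin, 9.25 and 9.17 in epithelium control and 9.39 and 9.26 in epithelium vinclozolin. Probe set 1368724_a_at read 8.18 and 8.02, 6.96 and 7.14, 8.09 and 8.06, and 8.05 and 8.07 in the same order of groups. Here too the pair of whole prostate vinclozolin arrays was the lowest, and the other 6 lay close together. In that order 1370288_a_at read 9.94 and 9.74, 8.84 and 8.95, 10.71 and 10.81, and 10.82 and 10.69. Probe set 1370513_at read 5.70 and 5.66, 4.73 and 4.76, 6.13 and 6.05, and 5.85 and 5.98.

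The brightest probe set of Tpm1, 1370287_a_at, was not called (-0.93 ± 0.17, limma adjusted p = 0.057). It read 12.02 and 12.12 in whole prostate control, 11.28 and 10.99 in whole prostate vinclozolin, 11.67 and 12.06 in epithelium control and 11.84 and 11.99 in epithelium vinclozolin. Its whole prostate groups did not overlap either, where 27.8% of all probe sets lay lower in vinclozolin without overlap. The seventh, 1371240_at, was dim, at 4.25 and 4.60 in whole prostate control and 4.30 and 4.11 in whole prostate vinclozolin, and was not tested. It was designed on the same sequence record as 1371241_x_at.

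**Figure D1:**
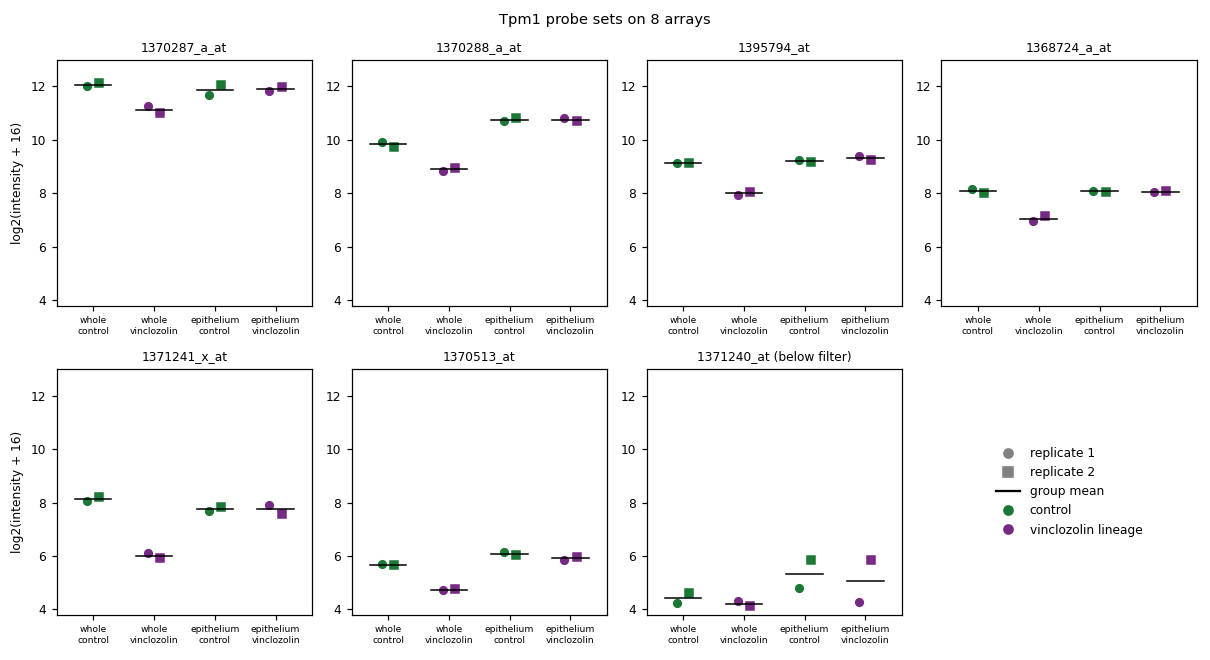
Level of each of the 7 Tpm1 probe sets (y axis, log2(intensity + 16)) on the 8 arrays, by group on the x axis, with circles for replicate 1, squares for replicate 2 and a line for the group mean. In whole prostate vinclozolin the 6 probe sets that passed the filter lie below whole prostate control, while the epithelium groups lie close together, and 1371240_at is near the bottom of the scale.

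The 6 tested probe sets were compared with each other within each array, by the difference of a probe set from the median of the other 5. For 1371241_x_at that difference was -1.08 and -0.95 in whole prostate control and -1.86 and -2.14 in whole prostate vinclozolin, a further drop of 0.98 beyond the rest. For the other 5 the same quantity moved by 0.00 to 0.20. In epithelium it moved by -0.14 for 1371241_x_at. An exact two-sided permutation test over 2 against 2 arrays cannot go below p = 0.33, which is the value it gave for 1371241_x_at in whole prostate. By the maker's naming, the suffix x_at marks probes that also match other sequences and a_at probes shared by alternative transcripts of 1 gene, and RefSeq lists 28 Tpm1 transcripts. Which transcripts each probe set reads was not tested, nor was signal from other tropomyosin genes.

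The Tpm1 calls rested on few arrays. With any 1 whole prostate array left out, 0 or 1 member call remained in place of 5, and 1371241_x_at itself lost its call without whole prostate control replicate 2 (limma adjusted p = 0.052). The 6 negative signs held in every such fit, which was fixed in advance because the whole prostate groups did not overlap on any of the 6. The change of the dim probe set 1370513_at was -1.63 with a pseudocount of 1 and -0.41 with 64.

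Part of a skeletal muscle list fell with Tpm1 in whole prostate. Of its 49 tested probe sets, 7 were called lower and 0 higher, where 0.925% of all probe sets were lower and 0.819% higher. The other 42 were not called, 9 of the 49 changes were positive, and the median change was -0.45. Myl1, a fast skeletal myosin light chain, read 8.56 and 8.54 in whole prostate control, 5.58 and 5.77 in whole prostate vinclozolin and between 4.67 and 5.25 in epithelium. Tnnc2, fast skeletal troponin C, read 8.56 and 8.50 in whole prostate control, 6.52 and 6.65 in whole prostate vinclozolin and 9.17 to 9.51 in epithelium. The summed deposited intensity of the 41 skeletal muscle genes on the array was 4972 and 5127 in whole prostate control, 2723 and 2927 in whole prostate vinclozolin and 8902 to 10061 in epithelium. Actn2, Mybpc1 and Myod1 were under 16 on every array. The part of skeletal muscle RNA in the Tpm1 result was not tested. Macrophage markers were higher on 2 of 11 probe sets (median 0.62), with summed intensities of 6313 to 6800 in whole prostate control and 4644 to 5286 in whole prostate vinclozolin, and endothelial markers on 1 of 12. Fibroblast, pericyte, luminal, basal and adipocyte markers had no call, and the part of these cells was not tested.

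The rest of the thin filament did not pass in whole prostate. Without Tpm1, its 15 probe sets from 11 genes had 10 negative and 5 positive changes, with a median of -0.21 and a lowest adjusted p of 0.075. Acta2, smooth muscle alpha-actin, read 7.08 and 7.48 in control and 7.64 and 7.58 in vinclozolin (0.32 ± 0.17). Actg2, smooth muscle gamma-actin, read 8.15 and 8.08 in control and 7.81 and 7.78 in vinclozolin (-0.32 ± 0.10). The groups of each actin did not overlap, and the actins lay on opposite sides. Over all probe sets 27.8% lay lower and 26.1% lay higher in vinclozolin without overlap.

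Cald1, which encodes caldesmon, an actin-binding inhibitor of myosin, measured -0.85 ± 0.18 (limma adjusted p = 0.075) on its brightest probe set, at 8.49 and 8.45 in control and 7.87 and 7.35 in vinclozolin. Tagln, transgelin, measured -0.39 ± 0.14 and Tpm2, beta-tropomyosin, -0.30 ± 0.11. The calponin gene Cnn1 measured -0.18 ± 0.11, and Smtn, smoothelin, measured 0.24 ± 0.45 with control arrays that lay far apart, at 4.54 and 6.07. None of these was called.

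The motor genes did not pass either. Myh11, the smooth muscle myosin heavy chain, read 9.62 and 9.52 in whole prostate control and 9.25 and 9.24 in vinclozolin (-0.32 ± 0.11). Myl9, the regulatory light chain, measured -0.24 ± 0.14. Mylk, the kinase of that light chain, measured 0.07 ± 0.11 on its bright probe set and 0.47 ± 0.15 on the other, which with Pdlim7 and Vim had the lowest p among positive changes (limma adjusted p from 0.17 to 0.18). Among intermediate filament genes, Des, desmin, measured -0.34 ± 0.13, Synm, synemin, -0.61 ± 0.13 (adjusted p = 0.071) and Vim, vimentin of mesenchymal cells, 0.32 ± 0.11.

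Among the 16 probe sets of dense plaque and adhesion genes, 9 had a positive and 7 a negative change, with a median of 0.03. The actin-bundling Synpo2 (synaptopodin 2) measured -0.87 ± 0.16 on 1376398_at (limma adjusted p = 0.053), -0.88 ± 0.20 on 1371679_at and -0.31 ± 0.14 on 1384160_at. Its groups did not overlap on any of the 3, where 27.8% of all probe sets lay lower in vinclozolin without overlap. Vcl (vinculin), Flna (filamin A), Actn1 (alpha-actinin 1) and Csrp1, a LIM protein of actin cables, had changes between -0.14 and 0.28. Pdlim7, a PDZ and LIM protein, measured 0.44 ± 0.14 on 1 probe set and -0.69 ± 0.15 on the other. The transcription factor genes Srf (0.25 ± 0.17 on its brightest probe set) and Myocd (0.25 ± 0.25) were not called.

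Over the 56 member probe sets the median change in whole prostate was -0.16, against -0.01 over all probe sets tested, and it was -0.06 without Tpm1. At an unadjusted p under 0.05, 19 were lower and 3 higher, where 9.98% of all probe sets were lower and 8.74% higher at that threshold. Groups did not overlap for 27 that lay lower and 9 that lay higher in vinclozolin, where the shares over all probe sets were 27.8% and 26.1%. The 6 tested Tpm1 probe sets were among the 19 and among the 27, and probe sets of 1 gene are not independent. In bulk tissue, fewer cells of a type and less RNA per cell cannot be told apart.

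**Figure D2:**
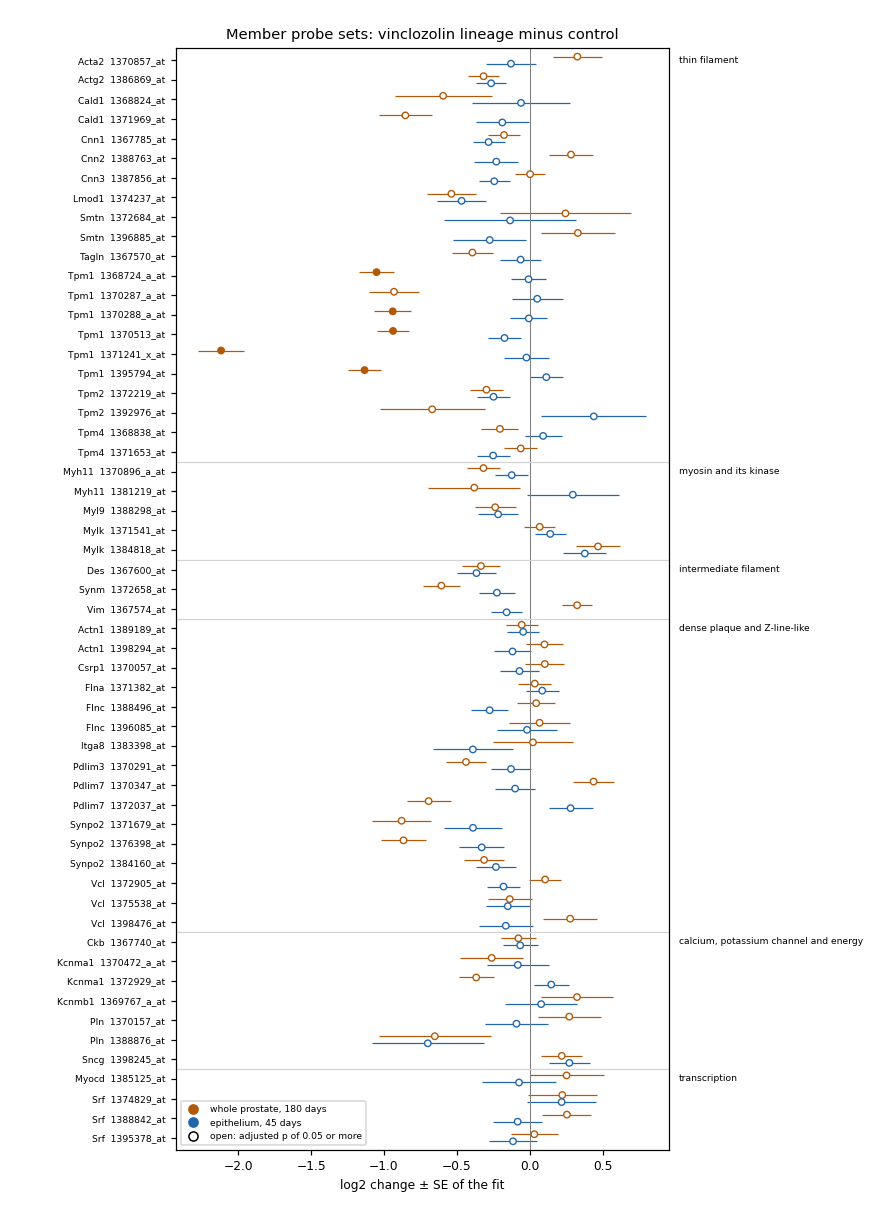
Change of the 56 member probe sets between lineages (x axis, log2, vinclozolin minus control, bars for the SE) by probe set on the y axis, grouped by role, with whole prostate in orange and epithelium in blue and filled points for an adjusted p under 0.05. The filled points are the 5 Tpm1 probe sets called in whole prostate, and the epithelium points lie between -0.70 and 0.44.

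In epithelium of 45-day rats no member was called. In limma's fit 0 of 56 probe sets passed, 5 had an unadjusted p under 0.05 (where the share was 11.4% over all probe sets), and 0.0046% of all probe sets were called lower and 0.0046% higher, or 0.0092% in all. Of the 56 changes, 43 were negative, and their median was -0.12 against 0.00 over all probe sets. Groups did not overlap for 23 that lay lower and 7 that lay higher, where the share over all probe sets was 19.7% in each direction.

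The members of lowest p with a negative change in epithelium were Lmod1, leiomodin, which starts actin filaments (-0.47 ± 0.17), Des (-0.37 ± 0.13) and Cnn1 (-0.28 ± 0.11), all with a limma adjusted p of 0.38 to 0.41. Des read 9.82 and 9.78 in epithelium control and 9.44 and 9.43 in epithelium vinclozolin, and 7.75 and 8.06 in whole prostate control and 7.56 and 7.58 in whole prostate vinclozolin. Lmod1 read 6.68 and 6.35 in epithelium control and 5.94 and 6.16 in epithelium vinclozolin, and its groups in whole prostate, at 5.98 and 6.0 against 5.31 and 5.59, did not overlap either. In both preparations the vinclozolin arrays lay below the control arrays for these genes, without passing the test. Over all probe sets, 19.7% lay lower in vinclozolin without overlap in epithelium and 27.8% in whole prostate. These genes were picked by their low p in epithelium, so their separation there is not separate evidence. The Mylk probe set 1384818_at (0.38 ± 0.15), Pdlim7 1372037_at (0.28 ± 0.15) and Sncg (0.27 ± 0.14) had the lowest p among positive changes, and their adjusted p was 0.42 to 0.55. Acta2 (-0.13 ± 0.17), Tagln (-0.06 ± 0.14), Myh11 (-0.13 ± 0.11) and Srf (-0.08 ± 0.17) were not called.

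Tpm1 in epithelium had changes from -0.17 to 0.11 on its 6 tested probe sets. For 1371241_x_at the change was -0.02, with a 95% interval from -0.40 to 0.35, which does not reach the fall of 2.12 seen in whole prostate. The effects in the preparations were compared directly, and the difference, epithelium effect minus whole prostate effect, was 2.09 ± 0.22 for 1371241_x_at (limma adjusted p = 0.025). It was the 1 member probe set called in that comparison, in which 0.17% of all probe sets were called higher and 0.12% lower, or 0.29% in all. For the other 5 the difference ran from 0.76 to 1.25 with adjusted p from 0.052 to 0.20. The call of 1371241_x_at was lost with any array left out (adjusted p from 0.070 to 0.17), with a pseudocount of 1 (0.053) and with no filter on dim probe sets (adjusted p = 0.053).

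Between the control groups, smooth muscle genes were higher in the preparation labelled epithelium than in whole prostate. Acta2 rose by 3.65 ± 0.17 (12.5-fold), Actg2 by 2.93 ± 0.10, Cnn1 by 2.82 ± 0.11, Tagln by 2.67 ± 0.14 and Myl9 by 2.63 ± 0.14, all with a limma adjusted p of 0.00011 or lower. Age (45 and 180 days) and preparation changed together between these groups and cannot be told apart. In epithelium control 39 of the 56 rose and 3 fell, where 12.9% of all probe sets were called higher and 15% lower, or 27.8% in all. Groups did not overlap for 45 that lay higher and 6 that lay lower, where the shares over all probe sets were 29.2% and 37.4%. Of the 34 genes, 27 had a probe set called higher, 3 had 1 called lower and 4 had none called. The epithelium label is thus not matched by an absence of smooth muscle markers.

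By array, Acta2 read 11.07 and 10.79 in epithelium control and 10.77 and 10.82 in epithelium vinclozolin, against 7.08 to 7.64 on the 4 whole prostate arrays. Tagln read 12.27 and 12.42 in epithelium control and 12.21 and 12.35 in epithelium vinclozolin, against 9.15 to 9.72 in whole prostate. Actg2 read 11.04 on both epithelium control arrays and 10.80 and 10.75 in epithelium vinclozolin, against 7.78 to 8.15 in whole prostate. No epithelium array overlapped a whole prostate array for these genes.

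The other tropomyosins differed in the same direction, with Tpm2 up by 2.21 ± 0.11 on its bright probe set and Tpm4, a widely expressed tropomyosin, by 1.63 ± 0.13 and 1.11 ± 0.11. Tpm1 was higher on 2 of 6 probe sets, by 0.93 ± 0.13 on 1370288_a_at and 0.41 ± 0.11 on 1370513_at, and the other 4 measured between -0.37 and 0.07. The motor gene Myh11 was higher by 1.83 ± 0.11 and the intermediate filament gene Des by 1.90 ± 0.13. The calponin gene Cnn2 rose by 1.59 ± 0.15, from 7.59 and 7.63 in whole prostate control to 9.19 on both epithelium control arrays. Vcl (by 1.13 to 1.97 over 3 probe sets), Flna (2.02 ± 0.11) and Synpo2 (2.10 ± 0.16 on 1376398_at) were higher as well. All 4 probe sets of the transcription factor genes were higher, Myocd by 1.48 ± 0.25 and Srf by 1.11 to 1.57. Ckb, the brain-type creatine kinase that regenerates ATP, rose by 1.99 ± 0.12.

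The 3 probe sets lower in epithelium control belonged to Sncg (-3.12 ± 0.14), Kcnma1, the large-conductance calcium-activated potassium channel (-0.64 ± 0.12), and Synm (-0.58 ± 0.13). Sncg, gamma-synuclein, read 9.0 and 8.84 in whole prostate control and 5.70 and 5.91 in epithelium control. Adipocyte markers moved the same way as Sncg, since 5 of 6 were lower and their median was -3.14, with summed intensities of 2242 to 2561 in whole prostate and 184 to 235 in epithelium. Their part in the Sncg result was not tested. The bright probe set of Mylk was not called (-0.30 ± 0.11, limma adjusted p = 0.078), at 12.36 and 12.42 in whole prostate control and 12.10 and 12.08 in epithelium control.

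The vinclozolin arrays gave a second reading of the same contrast from other samples. There 43 of the 56 rose and 1 fell in epithelium, where 13.1% of all probe sets were called higher and 14.2% lower, or 27.4% in all. Acta2 differed by 3.19 ± 0.17, Tagln by 3.0 ± 0.14 and Sncg by -3.07 ± 0.14. All 6 tested Tpm1 probe sets were higher in epithelium in these arrays, by 0.77 to 1.86, where the control arrays had called 2. For Tpm1 these values contain the fall already described in the same whole prostate vinclozolin arrays, and are not separate evidence of it. The contrast in the vinclozolin arrays was added after the values were seen.

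**Figure D3:**
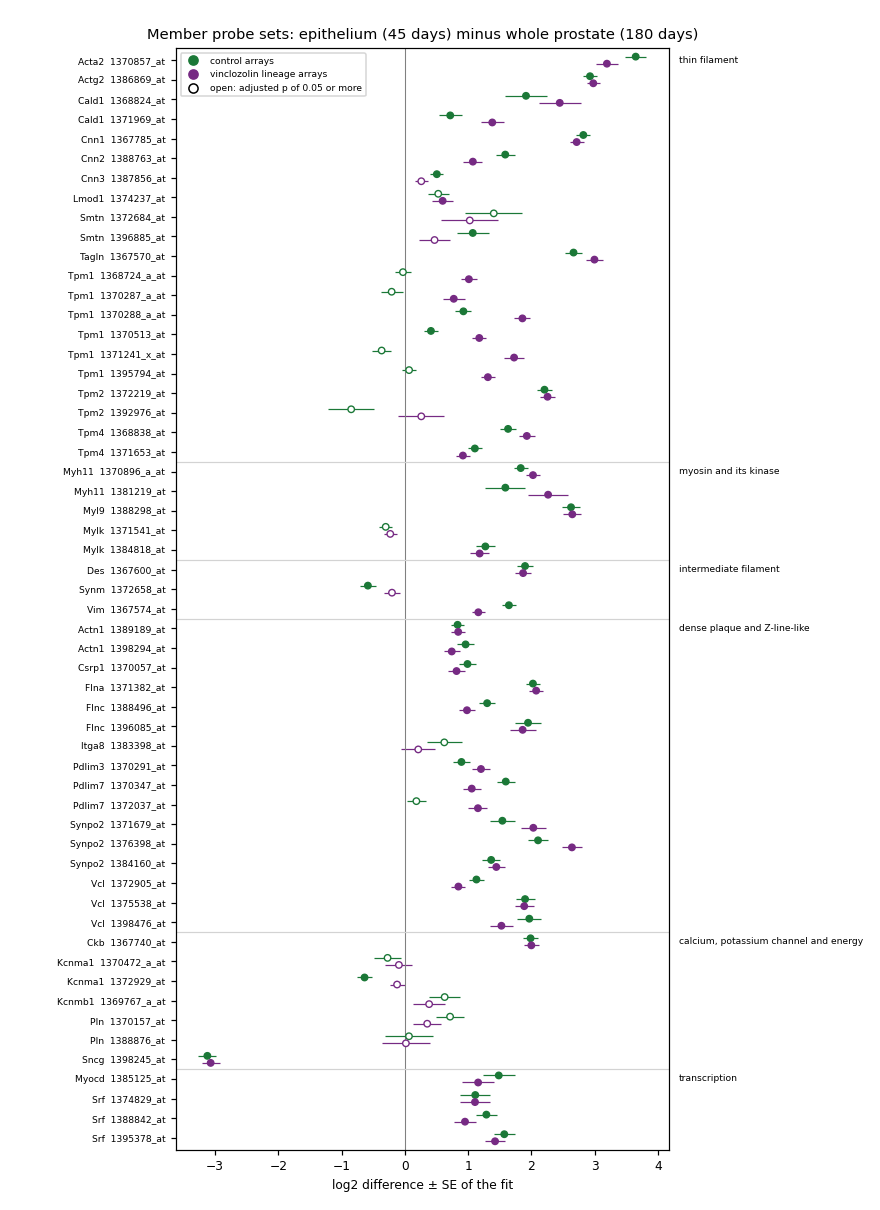
Difference of the 56 member probe sets between preparations (x axis, log2, 45-day epithelium minus 180-day whole prostate, bars for the SE) by probe set on the y axis, grouped by role, in control arrays (green) and vinclozolin arrays (purple), filled where the adjusted p was under 0.05. Most points lie to the right of 0, Sncg lies near -3.1 in both, and the Tpm1 points of the vinclozolin arrays lie to the right of those of the control arrays.

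Markers of some other cell types moved with the members between the control groups. In epithelium control 12.9% of all probe sets were called higher and 15% lower. Basal epithelial markers were higher on 13 of 18 probe sets (median 1.44), fibroblast markers on 15 of 24 (median 0.90, 3 lower), endothelial markers on 7 of 12 and pericyte markers on 4 of 10. Luminal markers were higher on 5 of 12 and lower on 1 (median 0.13), and their summed intensity was 23696 to 25176 in epithelium and 21091 to 21587 in whole prostate. Macrophage markers were lower on 4 of 11, and skeletal muscle genes were higher on 16 and lower on 14 of 49 (median 0.04). No list had every marker dim in a group. The median of all probe sets in this contrast was -0.05, 0.04 with the values as deposited and -0.20 with median centring, and the share of calls that were higher was 46.3%, 53.8% and 28.9% in that order.

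**Figure D4:**
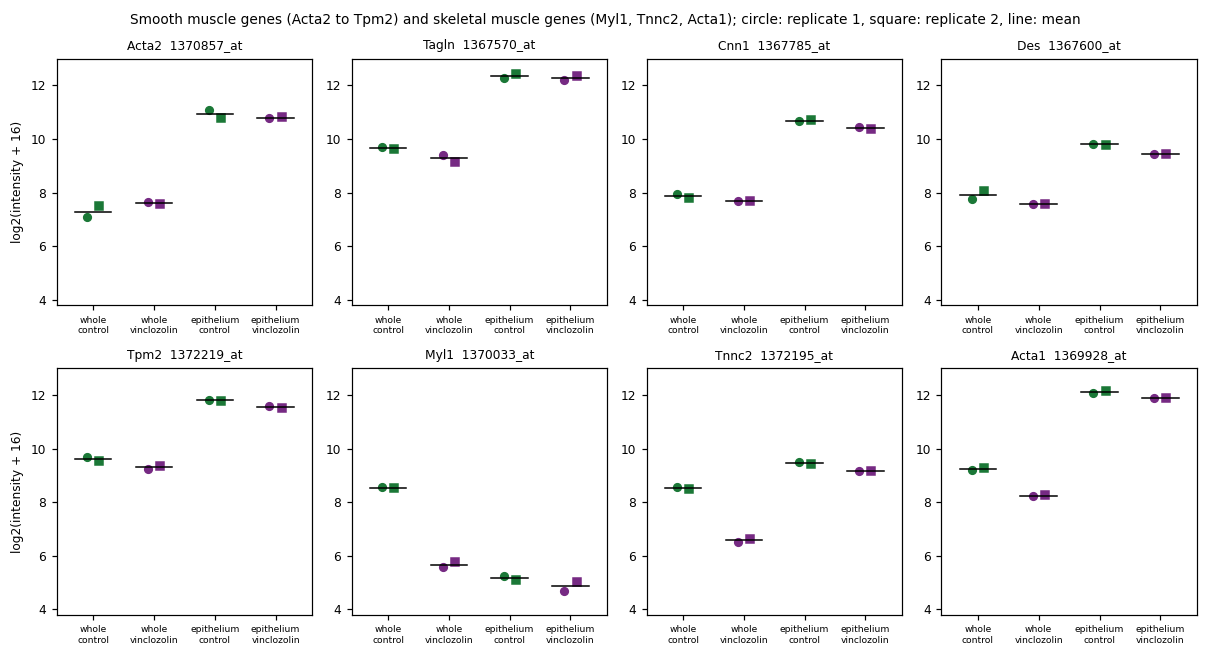
Level (y axis, log2(intensity + 16)) on the 8 arrays, by group on the x axis, of the smooth muscle genes Acta2, Tagln, Cnn1, Des and Tpm2 and the skeletal muscle genes Myl1, Tnnc2 and Acta1, with a line for the group mean. The smooth muscle genes are higher in both epithelium groups, and the skeletal muscle genes are lower in whole prostate vinclozolin than in whole prostate control.

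Genes that work with the members were counted from 3 further lists. In whole prostate 2.5%, 4.76% and 1.25% of their probe sets were called, in the order given below, against 1.74% of all probe sets. Among 40 probe sets of contractile regulation (such as myosin phosphatase, nonmuscle myosin, receptors and calcium channels), 1 rose and 0 fell in whole prostate of the vinclozolin lineage. It was Myh9, nonmuscle myosin heavy chain IIA, which rose by 0.74 ± 0.12, from 9.12 and 9.27 in control to a mean of 9.94 in vinclozolin (limma adjusted p = 0.040). Among 42 probe sets of cofactors of serum response factor and related regulators, both called were Fhl2, a LIM-only partner of serum response factor, which rose by 1.15 ± 0.14 and 1.08 ± 0.15 on its probe sets. By array, Fhl2 1369313_at read 6.80 and 6.60 in whole prostate control, 7.82 and 7.89 in whole prostate vinclozolin and 7.89 to 8.14 in epithelium.

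Among 80 probe sets of other actin and adhesion genes, 1 was called in whole prostate (1.25%, against 1.74% of all probe sets). Itga1, the integrin alpha-1 subunit that binds collagen, fell by 1.45 ± 0.16 (limma adjusted p = 0.012). It read 6.59 and 6.44 in control and 5.18 and 4.96 in vinclozolin, and 8.24 to 8.57 on the epithelium arrays. The medians of the 3 lists in whole prostate were -0.0016, -0.00070 and -0.04, and 0 of their probe sets were called in epithelium (limma; 5, 5 and 8 had an unadjusted p under 0.05, where the share over all probe sets was 11.4%).

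Between the control groups, 9 of 40 were higher and 1 lower in epithelium on the contractile regulation list. For the cofactor list 15 of 42 were higher and 2 lower, and for the actin and adhesion list 36 of 80 were higher and 1 lower. Called in all were 25%, 40.5% and 46.2%, against 27.8% of all probe sets (12.9% higher and 15% lower). Palld, palladin of actin bundles, was higher by 3.25 ± 0.14, Fhl1, a LIM protein of muscle, by 2.81 ± 0.14 and Cav1, caveolin 1, by 2.77 ± 0.17. Ppp1r12a, the targeting subunit of myosin phosphatase, was higher by 1.77 ± 0.14 on 1382307_at and by 1.39 ± 0.15 on 1381850_at. Its brighter probe sets 1376662_at (0.35 ± 0.14, limma adjusted p = 0.11) and 1383576_at (0.40 ± 0.12, adjusted p = 0.051) were not called. Klf4, a factor that opposes myocardin, was higher too, by 2.19 ± 0.13, as was Ccn2, a target of actin and TGF-beta signalling, by 1.94 ± 0.12.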

How the data were processed

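RNA of 8 pooled prostate samples was measured on Affymetrix expression arrays. The authors deposited 1 linear intensity per probe set, already on a common trimmed mean across arrays as the values show; their software is not stated in the labels. Biotin labelling followed the maker's procedure, per the labels' protocols. Here each deposited intensity was turned into log2(value + 16), which understates changes of dim probe sets, and quantile normalised. Control probe sets (57) and the dimmest 30% by mean level were dropped, which kept 21729. Probe sets were named from the platform annotation where it gave 1 symbol (20826; 436 had several and 9780 none). Group means of all 8 arrays were fitted with limma 3.58.1 under R 4.3.3, where eBayes added 2.62 prior to 4 residual degrees of freedom, and the Benjamini-Hochberg adjustment ran over all probe sets tested. The fit was tested on simulated data. Promoters came from RefSeq (GRCr8), and plots were drawn with matplotlib 3.10.9 in Python 3.11.15. Depth is limited by the number of arrays.

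The members and lists were chosen with earlier results of these data known. Genes described by array were Tpm1, members called between lineages, the brightest probe set of 14 core genes, the 3 members of lowest p per direction in each lineage comparison, and the most changed members between control groups. From other lists, up to 4 of lowest p were eligible. Alternatives covered scaling, pseudocount, filter, prior, weights, arrays left out and the replicate number as a block. The contrast between preparations in vinclozolin arrays and the median without Tpm1 were added later.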

Additional observations from a re-analysis of the deposited data

Results flagged for a closer look

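The lineage effect of Tpm1 on probe set 1371241_x_at differed between the preparations by a direct test of the difference. The epithelium effect exceeded the whole prostate effect by 2.09 ± 0.22 on the log2 scale (limma adjusted p = 0.025). That call was lost with each of the 8 arrays left out in turn (adjusted p from 0.070 to 0.17) and under 3 of 8 other settings. Whole prostate gave -2.12 ± 0.16 and epithelium -0.02 ± 0.16, n = 2 arrays per group. No other member probe set was called in this comparison. Groups of 2 arrays are too small for a check of single outlying arrays.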

How the results depend on the processing

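In whole prostate the 379 calls became 235 with a pseudocount of 1, 1133 with 64, 200 with no filter, 65 with only the arrays of the comparison, 1814 with a trended and robust prior and 871 with array weights. With median centring 178 were higher and 315 lower, or 36.1% higher against 47%. The 5 member calls, all lower, became 10 with a pseudocount of 64, 1 with only the arrays of the comparison, 16 with the trended prior (with 2 higher) and 9 with array weights. In epithelium the 2 calls became 1 with median centring, 0 with a pseudocount of 1, no filter, the arrays of the comparison or array weights, 66 with a pseudocount of 64 and 205 with the trended prior. No member was called in epithelium under any of these 9 settings. For the difference of effects the 63 calls became 40 with a pseudocount of 1, 262 with 64, 32 with no filter and 540 with the trended prior, and the 1 member call became 2 with the values as deposited, with median centring or with array weights, 0 with a pseudocount of 1 or no filter, 4 with a pseudocount of 64 and 5 with the trended prior (with 1 lower). The member median between the control groups, 1.20, became 0.99 with median centring, 1.37 with a pseudocount of 1, 0.87 with 64 and 1.03 with no filter. In whole prostate the change of dim probe sets moved with the pseudocount (1 and then 64), to -1.63 and -0.41 for Tpm1 1370513_at and to -1.83 and -0.24 for Pdlim7 1372037_at, and with 64 to -0.28 for Lmod1 and -0.54 for Synpo2 1376398_at. With a pseudocount of 1 the Tpm1 probe set 1371241_x_at moved by -1.24 relative to the others in whole prostate. In the vinclozolin arrays 1 member in place of 3 was lower in epithelium, and Tpm1 1370287_a_at, 1368724_a_at and 1371241_x_at, at or below 0 in the control arrays, measured 0.77, 1.01 and 1.73.

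Leaving out 1 array in turn, with a lone array assumed to vary like the other groups, gave 26 to 220 calls in whole prostate with 0 to 5 members lower and 0 higher and a member median of -0.19 to -0.08. In epithelium it gave 0 calls, 0 of them members, and a member median of -0.15 to -0.11. For the difference it gave 5 to 18 calls with 0 members and a member median of 0.00 to 0.06. Between the control groups it gave 2661 to 5751 calls, with 34 to 40 members higher and 1 to 5 lower and a median of 1.10 to 1.25. The member median of whole prostate was -0.06 without Tpm1.

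Groups share replicate numbers in the titles, but deviations of arrays with the same number did not go together (correlations from -0.02 to 0.03), so the numbers were not taken as pairs. With the replicate block 177 probe sets were called in whole prostate, 0 in epithelium and 26 for the difference, with 0 members in the latter, where Tpm1 1371241_x_at had an adjusted p of 0.075. Signal limits 8 of 64 member probe sets, which were too dim to be tested.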

Other observations

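Probe sets of 1 gene did not always move together. Between the control groups Tpm2 measured 2.21 ± 0.11 on its bright probe set and -0.85 ± 0.36 on 1392976_at, which was dim, and Mylk measured 1.27 ± 0.15 on 1384818_at and -0.30 ± 0.11 on 1371541_at. In whole prostate the Pdlim7 probe sets 1370347_at and 1372037_at read 6.35 and 6.50 and 5.18 and 4.89 in control, and 6.86 and 6.86 and 4.20 and 4.47 in vinclozolin, on opposite sides. Pln, phospholamban, the inhibitor of the calcium pump of the sarcoplasmic reticulum, lay between 4.48 and 6.11 on its 2 tested probe sets over all 8 arrays. Kcnmb1, the beta subunit of the potassium channel, lay between 4.61 and 5.85, and Itga8, an integrin of smooth muscle, between 4.83 and 5.84 on the probe set tested. None of these 3 genes was called in any comparison.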
